A study of Rattus norvegicus with 6 samples.

Results

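T cell and leukocyte markers were followed by bulk RNA-seq in the inferior alveolar nerve (IAN), the branch of the trigeminal nerve that carries touch and pain from the lower jaw, lip and teeth. The set held 10 genes (Cd3e, Cd3d, Cd3g, Cd4, Cd8a, Cd2, Lck, Cd28, Ptprc and Il7r) of the 34106 genes in the table, each taken as the row whose gene name equals the symbol exactly. All 10 symbols were found, each in a single row. The nerves came from male Sprague-Dawley rats that were purchased at 6 to 7 weeks of age and acclimated before use. In 3 rats the IAN and the mental nerve were cut, leaving a small gap that was not sutured (IANX), and in 3 rats only the cheek skin and the masseter muscle were incised (Sham). The tissue was collected 14 days after surgery. No genetic change or drug was used in either group. The labels name the treatment of the IANX samples as transfection and that of the Sham samples as none, while the sample titles read IANX 1 to 3 and Sham 1 to 3, and the groups were taken from the titles. The samples are described as biological replicates.

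CD3 is the signalling part of the T cell receptor (TCR). Its gamma, delta, epsilon and zeta chains assemble with the antigen-binding chains on every mature T cell, and their tails are phosphorylated by the kinase Lck, which CD4 and CD8 carry to the receptor. CD28 delivers a second, costimulatory signal, CD2 an adhesive signal, and the interleukin-7 (IL-7) receptor keeps resting T cells alive. CD45, the product of Ptprc, is a phosphatase on all nucleated blood cells and activates Lck. T cells are known to enter the distal stump of cut peripheral nerves some days after macrophages do. In rats, unlike in mice, monocytes and macrophages also carry CD4.

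Each IANX library held between 13988750 and 16440720 counts in total and each Sham library between 14630127 and 17105402, so 1 count in a sample stood for less than 0.1 CPM (counts per 1000000 counts). Levels are CPM after TMM scaling (trimmed mean of M values). The quasi-likelihood test of edgeR (two-sided) was fitted to the 15374 genes with enough counts, and a gene passed at a Benjamini-Hochberg adjusted p under 0.05. At this threshold 17.8% of all tested genes were higher and 16.6% lower in IANX, so that 34.4% were called, and over all of them the log2 fold change had a median of 0.08. Schwann cell and nerve markers summed to 171330 to 224830 CPM in Sham and to 4155 to 15509 CPM in IANX, so the defining markers of nerve were present in every sample and were lower in each IANX sample. The summed tooth markers were at 56550 and 61257 CPM in IANX 1 and IANX 3, at 1971 CPM in IANX 2, and at 131 to 879 CPM in Sham. IANX 2 therefore stood apart from the other IANX samples, and results that rest on it are given with and without it. In bulk tissue, fewer cells of a type and less RNA per cell cannot be told apart.

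Of the 10 markers, 9 had enough counts to be tested, and 6 of them rose post-IANX (Cd3e, Cd4, Cd8a, Lck, Ptprc and Il7r), against 17.8% of all tested genes. None of the 9 fell (0 also at an unadjusted edgeR p under 0.05 and by DESeq2), and Cd3d, Cd3g and Cd2 did not pass. Cd28 had too few counts for the test. The levels in IANX lay wholly above those in Sham for 7 of the 10 genes, against 27.0% of all tested genes (51.5% in either direction). No marker gene overlapped another gene in the coordinates of the table. The plot of levels by sample shows that IANX 2 was the highest IANX sample for Cd3e, Cd3g, Cd4, Cd8a, Cd2, Ptprc and Il7r, while IANX 3 was the highest for Cd3d and Lck and IANX 1 for Cd28.

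**Figure D1:**
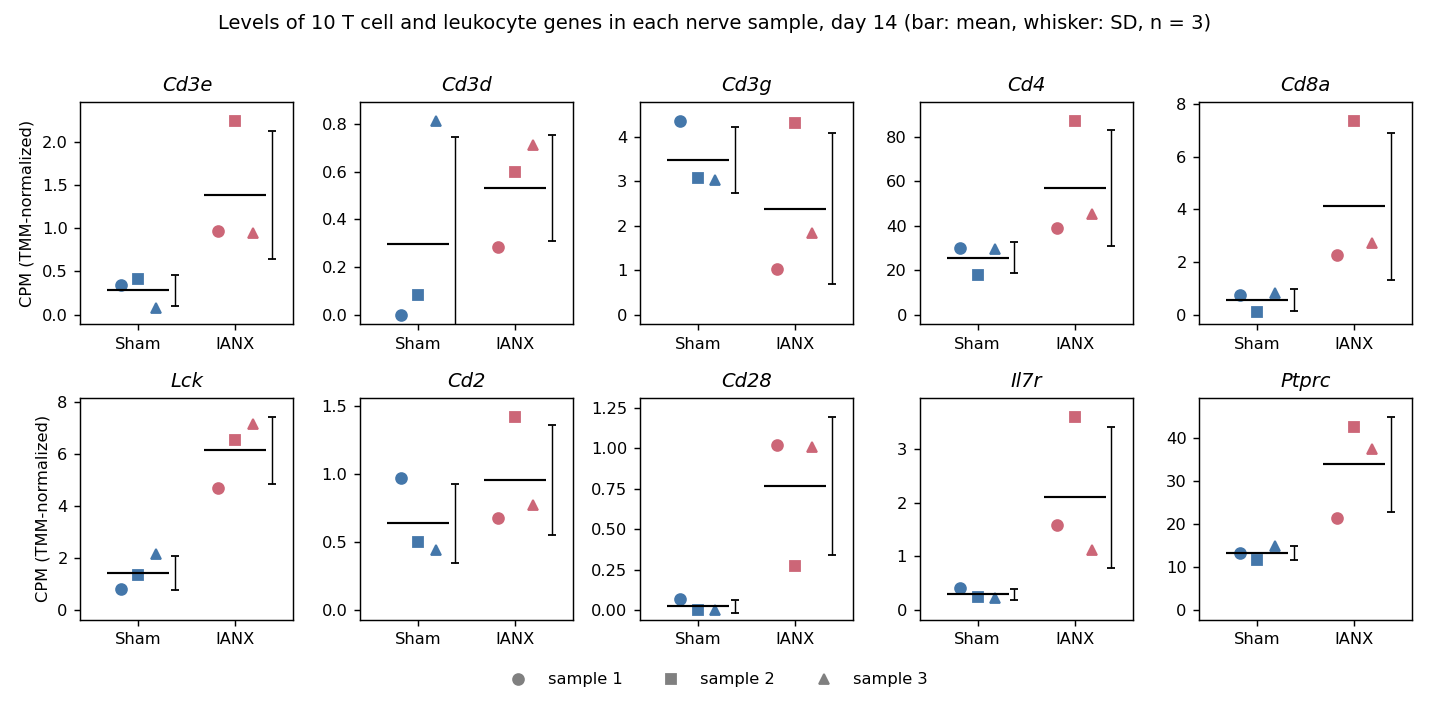
TMM-normalized CPM (vertical axes, a separate linear scale for each gene) of the 10 markers in the 3 Sham samples (blue) and the 3 IANX samples (red) on day 14, with the sample number as the symbol, the mean as a bar and the SD as a whisker cut at the axis. Levels in Sham and IANX do not overlap for Cd3e, Cd4, Cd8a, Lck, Cd28, Il7r and Ptprc, and they overlap for Cd3d, Cd3g and Cd2.

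Among the CD3 chains, Cd3e rose post-IANX while Cd3d and Cd3g did not pass the test. Cd3e, which encodes the epsilon chain shared by both CD3 dimers (ENSRNOG00000016069, rn6 chr8:49297608-49308806, minus strand), had 0.962, 2.23 and 0.948 CPM in IANX 1, 2 and 3 and 0.345, 0.416 and 0.0738 CPM in Sham 1, 2 and 3. These were 17, 41 and 16 raw counts against 5, 5 and 1. Each IANX sample was above each Sham sample, with IANX 2 the highest and Sham 3 the lowest. The mean was 1.38 ± 0.738 CPM in IANX and 0.278 ± 0.181 CPM in Sham (SD, n = 3 each), a 4.89-fold rise (log2 fold change 2.29, SE 0.681, edgeR adjusted p = 0.0369). This call was lost without any single sample: the edgeR adjusted p was 0.0532 without IANX 1, 0.0800 without IANX 2, 0.0608 without IANX 3, 0.102 without Sham 1, 0.0941 without Sham 2 and 0.125 without Sham 3. It was also lost when genes of low counts were kept in the table (adjusted p = 0.0611).

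Cd3d, the gene of the delta chain (ENSRNOG00000015994, rn6 chr8:49282460-49287110, plus strand), had 5, 11 and 12 raw counts in IANX 1, 2 and 3 and 0, 1 and 11 in Sham 1, 2 and 3. The groups overlapped because Sham 3, at 0.812 CPM, was above all IANX samples (0.283, 0.599 and 0.711 CPM), whereas Sham 1 was at 0 and Sham 2 at 0.0833 CPM. The log2 fold change was 0.81 (SE 1.06, edgeR adjusted p = 0.580). Without Sham 3 it was 3.53, which still did not pass (adjusted p = 0.0975).

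Cd3g, the gene of the gamma chain (ENSRNOG00000015945, rn6 chr8:49274960-49280901, minus strand), had the most counts of the CD3 chains and did not follow Cd3e. It had 1.02, 4.30 and 1.84 CPM in IANX 1, 2 and 3 (18, 79 and 31 counts) and 4.35, 3.08 and 3.03 CPM in Sham 1, 2 and 3 (63, 37 and 41 counts). IANX 1 and IANX 3 lay below all Sham samples, and IANX 2 lay within the Sham range. The log2 fold change was -0.54 (SE 0.540, edgeR adjusted p = 0.461). IANX 2 decided its call, while the log2 fold change was negative with and without that sample. Without IANX 2 it was -1.32 and passed as lower (edgeR adjusted p = 0.0447). With IANX 2 as the only IANX sample it was 0.31.

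Within the CD3 counts, the share of Cd3g was lower and that of Cd3e higher in every IANX sample than in every Sham sample. Cd3g gave 92.6%, 86.0% and 77.4% of the CD3 counts in Sham 1, 2 and 3 and 45.0%, 60.3% and 52.5% in IANX 1, 2 and 3. Cd3e gave 7.35%, 11.6% and 1.89% in Sham and 42.5%, 31.3% and 27.1% in IANX. The smallest attainable p was reached for either chain (exact permutation test over samples, two-sided, p = 0.1 for each, which 3 against 3 samples cannot go below and which does not pass 0.05), while the share of Cd3d overlapped (p = 0.5). The totals behind these shares were small, 68, 43 and 53 CD3 counts in Sham and 40, 131 and 59 in IANX. For Cd3e the exact binomial 95% intervals reached from 2.43% to 16.3%, 3.89% to 25.1% and 0.0478% to 10.1% in Sham 1, 2 and 3 and from 27.0% to 59.1%, 23.5% to 39.98% and 16.4% to 40.3% in IANX 1, 2 and 3. They cover counting error only, and the upper bound of Sham 2 lay above the lower bounds of IANX 2 and IANX 3.

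The 3 genes lie side by side on chromosome 8 of rn6, with 1558 bases between Cd3g and Cd3d and 10497 bases between Cd3d and Cd3e. The next gene beyond Cd3g is Ube4a, a ubiquitin ligase gene that lies downstream of Cd3g on the same minus strand, with its start 3125 bases from the end of Cd3g. Ube4a had 75.5, 79.4 and 90.1 CPM in IANX 1, 2 and 3 and 116, 113 and 110 CPM in Sham 1, 2 and 3 (log2 fold change -0.47, edgeR adjusted p = 0.0341). Ube4a was the more abundant of the pair, and it fell. By its strand and position, Ube4a is transcribed away from Cd3g. Whether reads from outside Cd3g were counted for Cd3g was not tested.

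**Figure D2:**
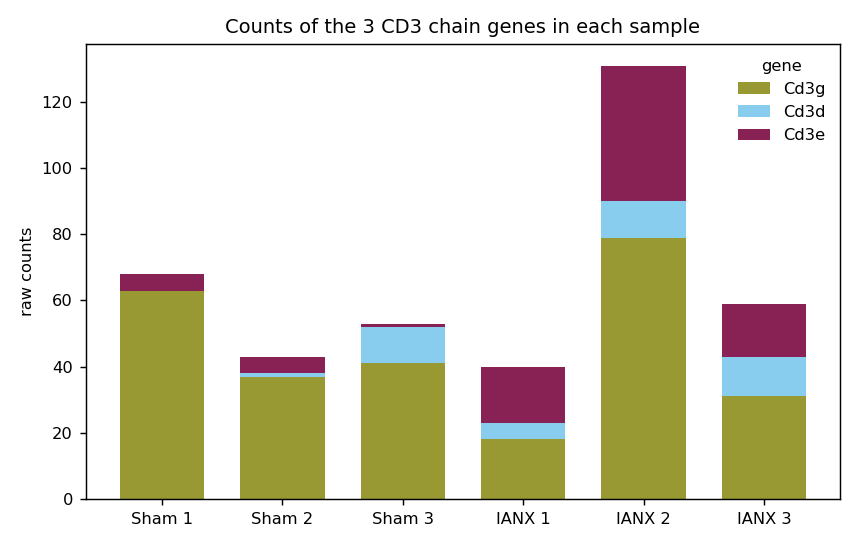
Raw counts (vertical axis, linear from 0) of Cd3g, Cd3d and Cd3e stacked for each of the 6 samples. Cd3g fills most of each Sham bar (37 to 63 counts of 43 to 68), and Cd3e is larger in the IANX bars (16 to 41 counts) than in the Sham bars (1 to 5 counts).

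The windows of 250 bases before the start of the CD3 genes are shown because neighbouring genes of 1 complex differed in their calls. They are written 5′ to 3′ on the strand of the gene and come from RefSeq on the build GRCr8, a later build than the rn6 of the counts. Capitals mark AGGAAG or its reverse complement CTTCCT, the core letters bound by ETS factors, and TGTGGT or its reverse complement ACCACA, the core letters bound by RUNX factors. Cd3e lies at chr8:54211771-54212020 (minus strand), Cd3d at chr8:54185269-54185518 (plus strand) and Cd3g at chr8:54183919-54184168 (minus strand).
Cd3e: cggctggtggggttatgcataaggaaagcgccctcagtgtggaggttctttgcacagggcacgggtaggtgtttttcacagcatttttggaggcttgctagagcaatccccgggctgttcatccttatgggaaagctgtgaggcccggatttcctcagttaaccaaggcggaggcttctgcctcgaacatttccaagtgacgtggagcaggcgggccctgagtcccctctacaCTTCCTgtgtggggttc
Cd3d: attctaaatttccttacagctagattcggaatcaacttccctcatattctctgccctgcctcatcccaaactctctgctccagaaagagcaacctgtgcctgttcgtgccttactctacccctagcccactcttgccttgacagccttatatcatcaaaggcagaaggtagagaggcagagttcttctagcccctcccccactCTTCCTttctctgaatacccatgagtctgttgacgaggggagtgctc
Cd3g: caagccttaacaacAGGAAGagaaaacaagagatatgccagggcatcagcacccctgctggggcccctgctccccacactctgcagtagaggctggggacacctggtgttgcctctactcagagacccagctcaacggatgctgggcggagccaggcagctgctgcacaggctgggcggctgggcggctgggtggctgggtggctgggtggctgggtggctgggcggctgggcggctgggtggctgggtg
Each of the 3 windows held the ETS letters a single time and none held the RUNX letters. The Cd3g window ended in a run of the unit GGCTGGG. The unit occurred 11 times in the whole window, not all within the run, and as often in only 1 of 33469 RefSeq windows, this one. The unit was read from this window, so its rarity elsewhere is a description and not a test. Over the markers, 9 of 10 had a RefSeq window (Cd4 had none), with 10 windows in all because Lck had a window for each of 2 starts. The ETS letters were in 7 of these 10 windows and in 29.5% of all 33469. The RUNX letters were in 4 of 10 and in 14.5% of all, and TATAAA on either strand in 0 of 10 and in 12.9% of all. The motifs do not overlap each other in letters. A match describes the letters and not the binding of a factor.

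The coreceptor genes both rose, Cd8a by more than Cd4. Cd8a, the gene of the alpha chain of CD8, which marks cytotoxic T cells and is also found on some rat natural killer (NK) cells (ENSRNOG00000007178, rn6 chr4:99239115-99243351, plus strand), had 2.26, 7.35 and 2.73 CPM in IANX 1, 2 and 3 and 0.759, 0.0833 and 0.812 CPM in Sham 1, 2 and 3. The raw counts were 40, 135 and 46 against 11, 1 and 11. The groups did not overlap, IANX 2 was far above the other IANX samples, and Sham 2 had a single count. Cd8a rose 7.26-fold (4.11 ± 2.81 against 0.552 ± 0.406 CPM, SD, n = 3 each; log2 fold change 2.86, SE 0.773, edgeR adjusted p = 0.0269). Its call was kept without any single IANX sample (log2 fold change 2.10, adjusted p = 0.0457 without IANX 2) and was lost without Sham 1, Sham 2 or Sham 3 (adjusted p = 0.0751, 0.0713 and 0.0761). Cd8b, the partner chain, was too low to be tested, with 9, 30 and 12 counts in IANX 1, 2 and 3 and 4, 0 and 0 in Sham 1, 2 and 3.

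Cd4, the coreceptor of helper T cells (ENSRNOG00000016294, rn6 chr4:157383052-157408176, minus strand), was the most abundant marker, with 38.9, 87.1 and 45.5 CPM in IANX 1, 2 and 3 and 30.0, 17.7 and 29.5 CPM in Sham 1, 2 and 3. IANX 2 was again the highest and Sham 2 the lowest, and the groups did not overlap. Cd4 rose 2.22-fold (57.2 ± 26.1 against 25.7 ± 6.99 CPM, SD, n = 3 each; log2 fold change 1.15, SE 0.350, edgeR adjusted p = 0.0397). Its log2 fold change without IANX 2 was 0.68 (adjusted p = 0.0562), and IANX 2 alone against Sham gave 1.77. The call was kept without IANX 1 (adjusted p = 0.0284) and lost without IANX 3 (0.0572), Sham 1 (0.0869), Sham 2 (0.145) or Sham 3 (0.0988).

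The 18 macrophage markers had a summed level of 1036, 2479 and 1137 CPM in IANX 1, 2 and 3, against 754, 690 and 769 CPM in Sham 1, 2 and 3, the same order of samples within IANX as Cd4. Of the 18, 7 rose and 1 fell, against 17.8% higher and 16.6% lower of all tested genes. Lyz2 was the largest part of the sum, at 376, 1023 and 510 CPM in IANX 1, 2 and 3 and 256, 231 and 274 CPM in Sham 1, 2 and 3. Ratios to the sum therefore weigh Lyz2 most. The log2 ratio of Cd4 to this sum was -4.73, -4.83 and -4.64 in IANX and -4.65, -5.29 and -4.71 in Sham. The groups overlapped, with a difference of 0.15 (IANX minus Sham; exact permutation test, two-sided, p = 0.8). The part of macrophages in the rise of Cd4 was not tested beyond this ratio.

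Lck rose to a similar level in all IANX samples. Lck, the kinase that starts TCR signalling (ENSRNOG00000009705, rn6 chr5:147750973-147761983, minus strand), had 4.70, 6.54 and 7.17 CPM in IANX 1, 2 and 3 and 0.828, 1.33 and 2.14 CPM in Sham 1, 2 and 3, or 83, 120 and 121 counts against 12, 16 and 29. The lowest IANX sample was above the highest Sham sample, and IANX 2 was in the middle of its group. Lck rose 4.26-fold (6.14 ± 1.28 against 1.43 ± 0.662 CPM, SD, n = 3 each; log2 fold change 2.09, SE 0.423, edgeR adjusted p = 0.00998). It passed in 16 of 17 alternatives and missed the threshold only without Sham 2 (log2 fold change 2.03, adjusted p = 0.0529).

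Lck has 2 promoters in rodents, a proximal promoter that is active mainly in thymocytes and a distal promoter that is active in mature T cells, and the RefSeq table gives a window for each of 2 starts. They are shown because Lck passed in all but 1 of its alternatives. Both are on the minus strand of GRCr8, the first at chr5:147183651-147183900 and the second at chr5:147201268-147201517, with capitals as for the CD3 genes.
Lck start 1: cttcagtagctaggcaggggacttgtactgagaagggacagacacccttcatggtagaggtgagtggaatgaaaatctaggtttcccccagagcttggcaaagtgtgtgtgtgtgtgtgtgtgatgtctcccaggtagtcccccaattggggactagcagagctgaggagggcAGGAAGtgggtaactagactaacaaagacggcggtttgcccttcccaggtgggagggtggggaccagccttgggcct
Lck start 2: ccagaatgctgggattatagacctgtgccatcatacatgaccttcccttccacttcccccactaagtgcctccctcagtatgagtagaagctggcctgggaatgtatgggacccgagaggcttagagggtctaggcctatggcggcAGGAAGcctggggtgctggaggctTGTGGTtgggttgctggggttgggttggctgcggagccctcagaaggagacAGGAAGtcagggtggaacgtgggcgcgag
The first window held the ETS letters a single time, and the second held them 2 times and the RUNX letters a single time. The counts are per gene, so that reads from the 2 starts were not separated.

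Il7r rose, Cd28 was found almost only in IANX, and Cd2 did not pass. Il7r, the gene of the alpha chain of the IL-7 receptor (ENSRNOG00000058446, on an unplaced scaffold of rn6 at positions 25355 to 47617, minus strand), had 1.58, 3.60 and 1.13 CPM in IANX 1, 2 and 3 and 0.414, 0.250 and 0.222 CPM in Sham 1, 2 and 3. The counts were 28, 66 and 19 against 6, 3 and 3, without overlap and with IANX 2 the highest. It rose 6.92-fold (2.10 ± 1.31 against 0.295 ± 0.104 CPM, SD, n = 3 each; log2 fold change 2.79, SE 0.618, edgeR adjusted p = 0.0137). Without IANX 2 the rise was smaller, at 2.12 on the log2 scale (adjusted p = 0.0196). The call was also kept without IANX 1, IANX 3 or Sham 1 (adjusted p = 0.0239, 0.0199 and 0.0437) and was lost without Sham 2 (0.0701) or Sham 3 (0.0717).

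Cd28, the costimulatory receptor gene (ENSRNOG00000010283, rn6 chr9:67546408-67571871, plus strand), had 18, 5 and 17 counts in IANX 1, 2 and 3 and 1, 0 and 0 counts in Sham 1, 2 and 3. IANX 2 was the lowest IANX sample, and it was still above all Sham samples. These were 1.02, 0.272 and 1.01 CPM against 0.0690, 0 and 0 CPM. The tooth marker sum was also lowest in IANX 2 within IANX, and the part of tooth tissue in the counts of Cd28 was not tested. The pooled ratio of IANX to Sham was 30.3, with an exact 95% interval of 5.13 to 1225 that covers counting error only and rests on 1 Sham count. Cd28 was below the filter on low counts, and the exact permutation test over samples gave p = 0.1 (two-sided), the smallest that 3 against 3 samples allow. With genes of low counts kept, edgeR gave a log2 fold change of 4.55 (adjusted p = 0.0249) and DESeq2 4.78 (adjusted p = 0.0133). When some samples were left out, Cd28 had enough counts for the edgeR test. It then passed without IANX 2 (adjusted p = 0.00514), and it did not pass without Sham 1 (0.0523), Sham 2 (0.0766) or Sham 3 (0.0759).

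Cd2, an adhesion receptor of T and NK cells (ENSRNOG00000015821, rn6 chr2:203666637-203680083, minus strand), had 0.679, 1.42 and 0.770 CPM in IANX 1, 2 and 3 and 0.967, 0.4997 and 0.443 CPM in Sham 1, 2 and 3, from 6 to 26 counts a sample. Sham 1 was above IANX 1 and IANX 3, so the groups overlapped. The log2 fold change was 0.57 (SE 0.529, edgeR adjusted p = 0.429), and Cd2 did not pass in any of the 15 alternatives in which it could be fitted.

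Ptprc, the CD45 gene that marks leukocytes as a whole (ENSRNOG00000000655, rn6 chr13:55061562-55173692, minus strand), had 21.5, 42.5 and 37.5 CPM in IANX 1, 2 and 3 and 13.3, 11.7 and 14.8 CPM in Sham 1, 2 and 3. The Sham samples lay close together and all IANX samples lay above them. Ptprc rose 2.55-fold (33.8 ± 11.02 against 13.3 ± 1.59 CPM, SD, n = 3 each; log2 fold change 1.35, SE 0.274, edgeR adjusted p = 0.0101). It passed in 16 of 17 alternatives and missed the threshold only without Sham 2 (adjusted p = 0.0559). The log2 ratio of Ptprc to the summed macrophage markers was -5.59, -5.86 and -4.92 in IANX 1, 2 and 3 and -5.83, -5.89 and -5.70 in Sham 1, 2 and 3. The groups overlapped, with a difference of 0.34 (IANX minus Sham, exact permutation test, two-sided, p = 0.3, 0.386 after adjustment over 9 ratios). With 3 against 3 samples, this test cannot show that the ratio was unchanged. Ptprc and the summed macrophage markers were each higher in every IANX sample than in every Sham sample. In IANX 2 and 3, Ptprc was at 42.5 and 37.5 CPM and the macrophage sum at 2479 and 1137 CPM. The part of macrophages in the rise of Ptprc was not tested beyond this ratio.

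**Figure D3:**
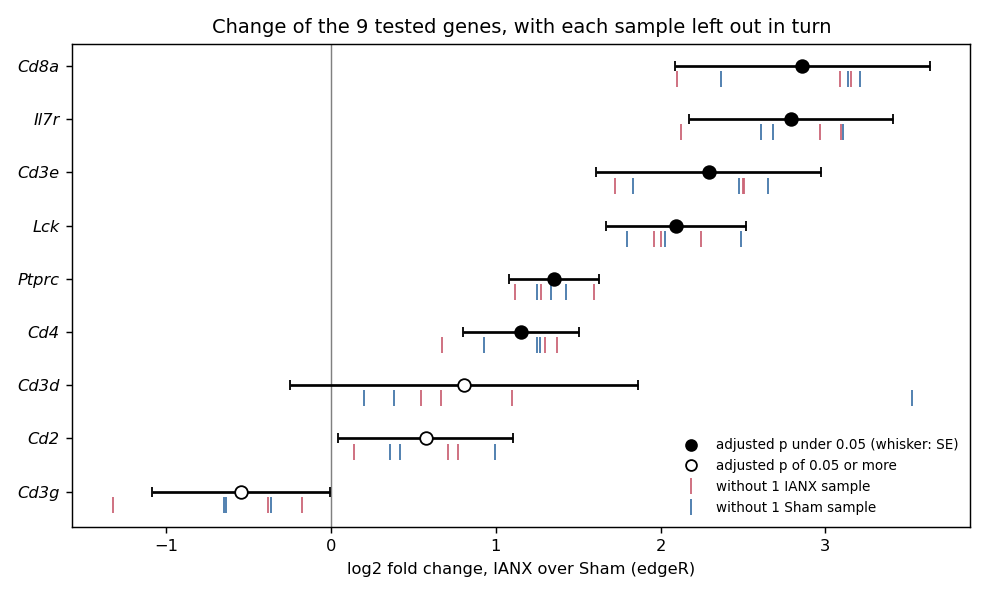
Log2 fold change of IANX over Sham from edgeR (horizontal axis) for the 9 tested markers, with filled points for an adjusted p under 0.05, whiskers for the SE, and ticks for the fits that leave out 1 IANX sample (red) or 1 Sham sample (blue). Every fit is above 0 for Cd8a, Il7r, Cd3e, Lck, Ptprc, Cd4, Cd3d and Cd2 and below 0 for Cd3g, which reaches -1.32 without IANX 2, while Cd3d reaches 3.53 without Sham 3.

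Compared per length, by the FPKM of the authors (fragments scaled to gene length and library size), Cd4 was the most abundant marker in both groups, with 32.3 ± 15.4 FPKM in IANX and 14.8 ± 3.96 FPKM in Sham (SD, n = 3 each). In Sham, Cd3g was in place 2 (5.71 ± 1.21 FPKM) and Ptprc in place 3 (2.65 ± 0.303 FPKM), followed by Lck, Cd2, Cd3d, Cd8a, Il7r, Cd3e and Cd28. In IANX, Ptprc was in place 2 (6.59 ± 2.23 FPKM) and Cd3g in place 3 (3.83 ± 2.82 FPKM), followed by Cd8a, Lck, Il7r, Cd3e, Cd2, Cd3d and Cd28. The ranges of mean ± SD of neighbours in this order were apart only for Cd4 and Ptprc in IANX, and in Sham for Cd4 and Cd3g, Cd3g and Ptprc, Ptprc and Lck, and Cd3e and Cd28. In Sham, Cd3g at 5.71 FPKM stood beside Cd3e at 0.188 ± 0.123 FPKM and Cd3d at 0.417 ± 0.623 FPKM, although the chains belong to the same receptor.

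To compare T cell genes with Ptprc, which macrophages also express, the markers were divided by it in each sample. On the log2 scale, Lck to Ptprc was -2.19, -2.70 and -2.39 in IANX 1, 2 and 3 and -4.00, -3.13 and -2.79 in Sham 1, 2 and 3, a difference of 0.88 (IANX minus Sham) with no overlap. Cd8a to Ptprc was -3.24, -2.53 and -3.78 in IANX and -4.13, -7.13 and -4.19 in Sham, a difference of 1.96 with no overlap, of which the single Cd8a count of Sham 2 gave the lowest value. Cd4 to Ptprc overlapped, with a difference of -0.20 (p = 0.6, exact permutation test).

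Cd3g to Ptprc was lower in every IANX sample (-4.40, -3.31 and -4.35) than in every Sham sample (-1.61, -1.92 and -2.29), a difference of -2.08. The summed CD3 chains to Ptprc followed it, with a difference of -1.37, while Cd3e to Ptprc overlapped with a difference of 1.23 (p = 0.3, exact permutation test). Cd4 to Cd8a was 4.10, 3.57 and 4.06 in IANX and 5.31, 7.73 and 5.18 in Sham, a difference of -2.16. The 5 ratios without overlap (Lck, Cd8a, Cd3g and the CD3 sum to Ptprc, and Cd4 to Cd8a) each had an exact permutation p = 0.1 (two-sided), the smallest that is possible, and 0.18 after adjustment over 9 ratios, so that none passed.

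**Figure D4:**
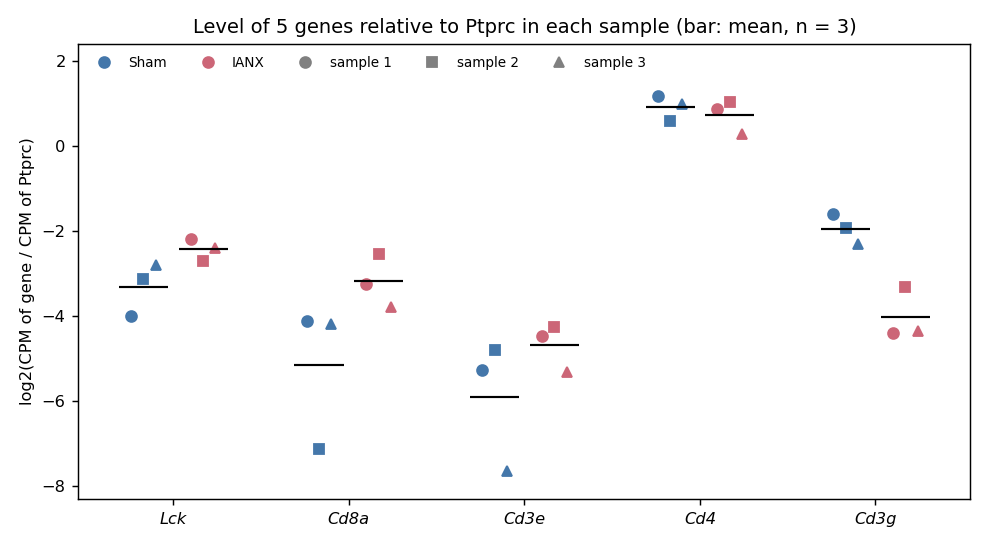
Log2 of the CPM of 5 markers over the CPM of Ptprc (vertical axis) in each Sham sample (blue) and IANX sample (red), with the mean as a bar and the sample number as the symbol. Lck and Cd8a lie higher and Cd3g lower in IANX without overlap, while Cd4 and Cd3e overlap between the groups.

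Further genes tied to T cells were counted in lists. These lists also hold genes of other cells, such as ligands presented to T cells, chemokines and adhesion molecules. Their counts are therefore not counts of T cell genes alone. Outside the 10 markers the T cell lists held 146 genes, of which 133 were found, 84 were tested, 35 rose, 9 fell and 40 did not pass, with a median log2 fold change of 1.12 against 0.08 over all tested genes. Over all tested genes, 17.8% were higher and 16.6% lower, the shares against which this count and those of each list below stand. The number that rose varied with the samples: 29 rose without IANX 1, 28 without IANX 2, 20 without IANX 3, 20 without Sham 1, 9 without Sham 2 and 9 without Sham 3. Of 29 list genes that met the rule for naming, including leukocyte and B cell lists, 24, 24, 18, 19, 10 and 10 passed in these fits.

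Of the TCR complex genes, Cd247, the zeta chain, had 15, 21 and 7 counts in IANX 1, 2 and 3 and 10, 3 and 4 in Sham 1, 2 and 3 and was not tested, and 6 symbols of the constant regions of the antigen-binding chains did not match a row and were not analysed here. Among 15 tested genes of TCR signalling, 4 rose, with Lck among them, 3 fell and 8 did not pass (median log2 fold change 0.61). Lcp2, the adaptor SLP-76 of T cells and other leukocytes, had 9.69 ± 1.85 CPM in Sham and rose to 24.8 ± 11.6 CPM in IANX (SD, n = 3 each; log2 fold change 1.35, edgeR adjusted p = 0.0297). Rasgrp1, an activator of Ras in lymphocytes, rose from 0.458 ± 0.459 to 2.51 ± 0.990 CPM (2.41, adjusted p = 0.0425). Prkcq, protein kinase C theta, which skeletal muscle also expresses, fell from 153 ± 8.56 to 27.7 ± 15.0 CPM (-2.46, adjusted p = 0.00395), and Grap2, an adaptor of SLP-76, fell from 9.84 ± 1.76 to 1.53 ± 0.596 CPM (-2.68, adjusted p = 0.00302). Prkcq and Grap2 thus moved against Lck, and both passed without any single sample. Their direction was that of the summed Schwann cell and nerve markers, and the part of nerve tissue in their falls was not tested. Lcp2 passed only without IANX 1 or IANX 2 (adjusted p 0.00704 to 0.122 over the 6 fits) and Rasgrp1 only without Sham 1 (0.0326 to 0.160).

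Among costimulatory and checkpoint receptors, 8 of 17 had too few counts, 1 of 9 tested rose and none fell in edgeR (0 lower also at an unadjusted p under 0.05 and by DESeq2). The share of all tested genes that rose was 17.8%. The checkpoint receptor gene Pdcd1 had 0 counts in all samples. Of 7 tested genes for ligands that other cells present to T cells, 3 rose and none fell in edgeR (median 1.38), with 1 lower at an unadjusted p under 0.05 and 1 lower by DESeq2. Cd274, which encodes PD-L1, rose from 1.53 ± 0.735 to 6.06 ± 2.23 CPM (SD, n = 3 each; log2 fold change 1.97, edgeR adjusted p = 0.0183) and Cd86, a ligand of CD28, from 1.26 ± 0.321 to 4.80 ± 2.69 CPM (1.92, adjusted p = 0.0214). Cd274 lost its call without IANX 1 (adjusted p = 0.0536), Sham 2 (0.0592) or Sham 3 (0.0742), and Cd86 without Sham 1 (0.0735), Sham 2 (0.0931) or Sham 3 (0.0694).

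In the IL-7 and common gamma chain system, 7 of 15 tested genes rose, 3 fell and 5 did not pass (median 0.89). Of all tested genes, 17.8% rose and 16.6% fell. Il2rg, the common gamma chain that pairs with Il7r, rose from 6.10 ± 0.872 to 14.9 ± 2.53 CPM (SD, n = 3 each; log2 fold change 1.29, edgeR adjusted p = 0.00761) and passed without any single sample. Il2rb, the beta chain of the IL-2 and IL-15 receptors, rose from 1.15 ± 0.5002 to 3.58 ± 0.972 CPM (1.62, adjusted p = 0.0270), and Socs1, a feedback inhibitor of cytokine signalling, from 2.96 ± 0.597 to 7.44 ± 1.33 CPM (1.32, adjusted p = 0.0146). Stat5a, which encodes a transcription factor activated by these receptors, fell from 44.0 ± 3.33 to 16.3 ± 0.900 CPM (-1.44, adjusted p = 0.000915) and passed without any single sample. The summed Schwann cell and nerve markers were lower in IANX too, and the part of nerve tissue in the fall of Stat5a was not tested. Il2rb passed only without IANX 1 (0.0378) or Sham 1 (0.0355), and Socs1 lost its call without Sham 2 (0.0562) or Sham 3 (0.0654). Il7, the ligand of Il7r, had 3, 4 and 1 counts in IANX 1, 2 and 3 and 4, 0 and 1 in Sham 1, 2 and 3 and was not tested.

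Of 10 tested transcription factors of the T lineage, 5 rose, 2 fell and 3 did not pass (median 0.79), against 17.8% higher and 16.6% lower of all tested genes. Bcl11b, a commitment factor of T cells that is also expressed in the developing tooth epithelium of mice, had 16.6, 1.63 and 28.4 CPM in IANX 1, 2 and 3 and 0.621, 0.167 and 0.148 CPM in Sham 1, 2 and 3 (log2 fold change 5.57, SE 1.13, edgeR adjusted p = 0.0102). Runx3, a factor of CD8 T cells, had 10.6, 3.49 and 7.70 CPM in IANX and 1.04, 0.666 and 0.812 CPM in Sham (3.10, adjusted p = 0.00440). Tcf7, a factor of resting T cells, had 26.8, 8.55 and 19.6 CPM in IANX and 5.59, 2.75 and 2.36 CPM in Sham (2.35, adjusted p = 0.0127). All 3 were lowest in IANX 2 within IANX, as the tooth marker sum was (1971 CPM against 56550 and 61257 CPM), and unlike Cd3e, Cd4, Cd8a and Il7r, which were highest there. Of the 10 markers, Cd28 was also lowest in IANX 2, with 5 counts against 18 in IANX 1 and 17 in IANX 3. The part of tooth tissue in these rises and in the counts of Cd28 was not tested.

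Bcl11b and Tcf7 lost their calls without Sham 2 (adjusted p = 0.0601 and 0.0666) or Sham 3 (0.0523 and 0.0590), and Runx3 passed without any single sample. Tox, a factor of T cell development, had 24.7 ± 3.08 CPM in Sham and fell to 3.44 ± 2.32 CPM in IANX (SD, n = 3 each; log2 fold change -2.84, edgeR adjusted p = 0.00442). Zbtb7b, the CD4 lineage factor ThPOK, fell from 45.2 ± 5.31 to 15.5 ± 3.81 CPM (-1.54, adjusted p = 0.00263). Tox and Zbtb7b passed without any single sample, and their direction was opposite to that of Cd4. The summed Schwann cell and nerve markers were also lower in IANX, at 4155 to 15509 CPM against 171330 to 224830 CPM in Sham. The part of nerve tissue in the falls of Tox and Zbtb7b was not tested.

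Of 11 tested cytotoxic and NK cell genes, 5 rose, none fell and 6 did not pass (median 1.39), and in edgeR at an unadjusted p under 0.05, as in DESeq2, again 0 were lower. Cst7, which encodes cystatin F, an inhibitor of granule proteases, rose from 1.39 ± 0.174 to 7.10 ± 3.42 CPM (SD, n = 3 each; log2 fold change 2.34, edgeR adjusted p = 0.00892) and passed without any single sample. Prf1, the pore-forming perforin gene, rose from 0.382 ± 0.112 to 1.79 ± 0.925 CPM (2.22, adjusted p = 0.0198) and lost its call without Sham 1 (0.0841), Sham 2 (0.0661) or Sham 3 (0.0898). The activating receptor gene Klrk1 (log2 fold change 1.90, adjusted p = 0.0366), the Fc receptor gene Fcgr3a (1.11, 0.0370) and the NK receptor gene Klrb1b (1.31, 0.0391) also rose. These calls needed nearly every sample: Klrk1 and Fcgr3a were lost without any single sample (adjusted p 0.0557 to 0.103 and 0.0607 to 0.140), and Klrb1b passed only without IANX 2 (0.0451). Gzma, a granzyme gene of cytotoxic cells, had 3, 0 and 1 counts in IANX 1, 2 and 3 and 0, 4 and 0 in Sham 1, 2 and 3.

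None of the 13 T cell cytokine genes had enough counts to be tested. Ifng, the gene of interferon gamma, had 0, 2 and 0 counts in IANX 1, 2 and 3 and 0 in each Sham sample, Il17a had 0, 0 and 3 counts in IANX and 0 in each Sham sample, and Il4, Il5, Il13, Il17f and Il22 had 0 counts in all samples. Il21 had 5, 5 and 7 counts in IANX and 11, 9 and 13 in Sham, without overlap, and was picked after its counts were seen. Among all tested genes, 51.5% did not overlap in CPM, and 24.5% lay wholly lower in IANX. No difference was tested for any of the 13 at this depth, Il21 included.

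Chemokines and homing receptors gave the largest number of calls, 12 higher and 1 lower of 19 tested (median 1.43). Cxcl9 and Cxcl10, ligands of the chemokine receptor Cxcr3 of T cells that are induced by interferon, both rose. Cxcr3 itself did not pass (edgeR adjusted p = 0.051). Cxcl11, on the same list, was too low to test, with 38, 9 and 3 counts in IANX 1, 2 and 3 and 8, 1 and 6 in Sham 1, 2 and 3. Cxcl10 rose from 0.944 ± 0.399 to 9.59 ± 4.30 CPM (SD, n = 3 each; log2 fold change 3.34, edgeR adjusted p = 0.00426) and passed without any single sample. Cxcl9 had 17.8, 98.7 and 9.66 CPM in IANX 1, 2 and 3 and 3.18, 4.33 and 5.69 CPM in Sham 1, 2 and 3 (3.26, adjusted p = 0.0251), and IANX 2 gave most of its mean: without IANX 2 the smallest log2 fold change of the 6 fits was 1.604 (adjusted p = 0.0106). Itga4, an integrin chain of lymphocytes and monocytes, rose from 3.12 ± 0.999 to 13.3 ± 6.42 CPM (2.09, adjusted p = 0.0102) and passed without any single sample.

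Ccr7, the lymph node homing receptor of naive and central memory T cells, rose from 0.441 ± 0.157 to 1.81 ± 0.808 CPM (SD, n = 3 each; log2 fold change 2.01, edgeR adjusted p = 0.0232). Cxcl9 lost its call without Sham 1 (0.0956), Sham 2 (0.108) or Sham 3 (0.0795). Ccr7 kept its call only without IANX 1 or IANX 2 (adjusted p 0.0249 to 0.105 over the 6 fits).

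**Figure D5:**
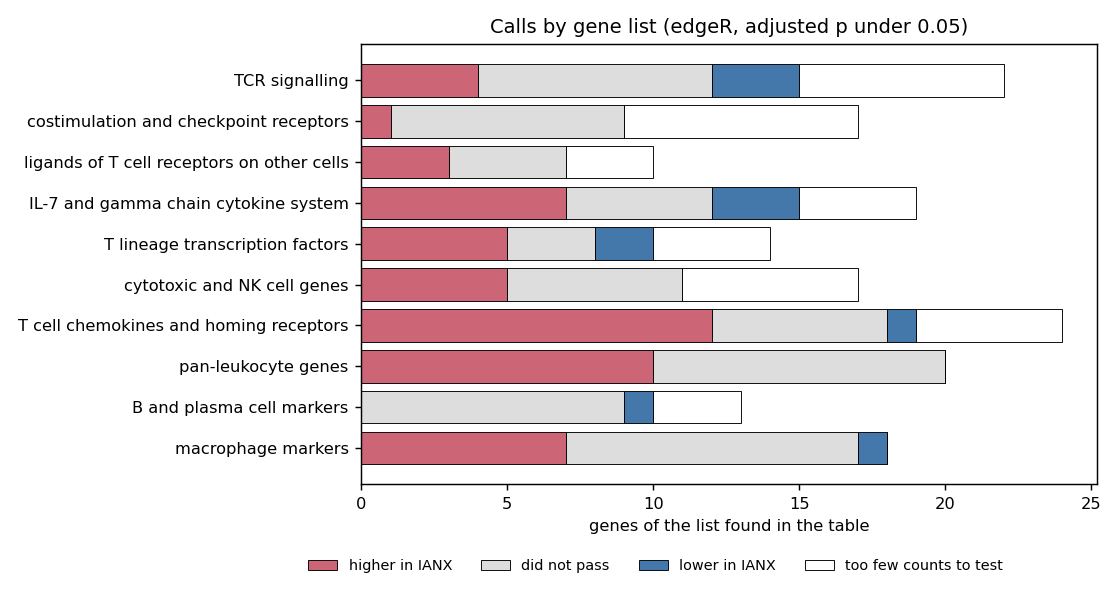
Number of genes (horizontal axis) of 10 lists that were higher in IANX (red), lower in IANX (blue), tested without passing (grey) or too low to test (white), by edgeR at an adjusted p under 0.05. Chemokines and homing receptors have 12 higher genes of 19 tested, and the B and plasma cell list has 0 higher and 1 lower of 10 tested.

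Markers of other blood cells are given beside these counts. Of 20 pan-leukocyte genes, all tested and with Ptprc among them, 10 rose, none fell and 10 did not pass (median 0.88), with 0 lower in edgeR at an unadjusted p under 0.05 and 0 lower in DESeq2. The number that rose was 9 without IANX 1, 6 without IANX 2, 2 without IANX 3, 4 without Sham 1, 0 without Sham 2 (9 at an unadjusted edgeR p under 0.05) and 1 without Sham 3. The integrin chain gene Itgb2 rose from 7.55 ± 1.29 to 20.02 ± 9.46 CPM (SD, n = 3 each; log2 fold change 1.40, edgeR adjusted p = 0.0240), the tetraspanin gene Cd53 from 9.99 ± 2.25 to 28.9 ± 12.2 CPM (1.53, adjusted p = 0.0144), and Dock2, which lymphocytes need for migration, from 0.436 ± 0.352 to 2.14 ± 0.942 CPM (2.26, adjusted p = 0.0351). Itgb2 kept its call only without IANX 1 or IANX 2 (0.00945 to 0.105 over the 6 fits), Cd53 lost it without Sham 2 (0.0640) or Sham 3 (0.0683), and Dock2 kept it only without IANX 1 or Sham 1 (0.0365 to 0.139).

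Of 10 tested B and plasma cell markers none rose, 1 fell and 9 did not pass (median -0.25), with 0 higher in edgeR at an unadjusted p under 0.05 and 0 higher in DESeq2. Their sum was 10.6, 24.9 and 34.7 CPM in IANX 1, 2 and 3 and 30.0, 25.5 and 43.6 CPM in Sham 1, 2 and 3, with overlap. Pax5, the B lineage factor, fell from 6.61 ± 3.50 to 1.22 ± 0.948 CPM (SD, n = 3 each; log2 fold change -2.43, edgeR adjusted p = 0.0448), a call kept only without IANX 1 or IANX 2 (0.0400 to 0.159 over the 6 fits). Of 9 tested neutrophil markers none passed in edgeR (1 higher at an unadjusted p under 0.05 and 1 higher in DESeq2), with sums of 44.3 to 273 CPM in IANX and 98.6 to 293 CPM in Sham. Erythroid and marrow markers had a summed level of 374, 1766 and 3110 CPM in IANX 1, 2 and 3, against 3079, 1775 and 4834 CPM in Sham 1, 2 and 3, and 1 of 9 tested rose.

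The summed CPM of the CD3 chains was used to find the genes with the most similar pattern over the 6 samples, by the mean absolute difference of log2 CPM after removing the mean of each gene. The closest 5 were Htra3 (0.094), Rarres2 (0.107), Medag (0.107), Anxa7 (0.109) and Stx11 (0.112). Like the CD3 sum, they were highest in IANX 2 and lowest in IANX 1, and none passed between the groups (edgeR adjusted p 0.622 to 0.989). None of the 5 was in a T cell list, although syntaxin 11, the product of Stx11, serves granule release in cytotoxic lymphocytes.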

How the data were processed

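Polyadenylated RNA of 3 IANX and 3 Sham nerves was sequenced as paired reads. Per the labels, the authors aligned reads with HISAT2 2.0.5 to rn6, assembled further transcripts with StringTie 1.3.3b and deposited raw counts per gene from featureCounts 1.5.0-p3. The deposited FPKM are the authors' values per gene length from the same counts. The annotation release, strand setting and treatment of multiply aligned reads are not given in the sources used here. Columns of the authors' own comparison (DESeq2 1.20.0 fold changes and p-values) were not used.

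Counts of all 34106 genes entered edgeR 4.0.16 (R 4.3.3), with filterByExpr (15374 genes kept), TMM scaling, and glmQLFit and glmQLFTest, two-sided, with group as the only term. SEs are the absolute log2 fold change divided by the root of the F statistic. The code was tested on simulated counts. Alternatives were RLE or library-size scaling, DESeq2 1.42.0, no filter, Ensembl genes only, leaving out each sample, IANX 2 alone, a block for the replicate number, and limma 3.58.1 on log2(FPKM + 1) or log2(FPKM + 0.1) with at least 1 FPKM in 3 samples, or without that minimum. Leaving the tooth and epithelial markers out of the table, and 7 of the 9 ratios, were added after seeing the data.

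The 10 markers and the 20 lists (281 genes) were chosen with earlier results of these data known. From each T cell, leukocyte or B cell list, up to 5 called genes with the largest changes, a mean of at least 1 CPM and no overlap were named. Genes too low to test were named after their counts were seen. Where Gzmb and Tnf had several rows, the row of more counts was used. A gene that met this rule is not reported here.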

Additional observations from a re-analysis of the deposited data

How the results depend on the processing

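Of the 10 markers, 6 rose in the edgeR comparison, and 6 also rose with RLE scaling, library-size scaling, Ensembl genes only, IANX 2 alone or without tooth and epithelial markers (chosen after seeing the data). Without the filter 6 rose, Cd28 in place of Cd3e, and by DESeq2 7, which added Cd28. limma on log2(FPKM + 1) called 3, on log2(FPKM + 0.1) called 3 and without the minimum called 3 (Cd28 among them), where 5 markers (10 without the minimum) could be fitted. Leaving out 1 sample gave 0 to 5 higher markers, with 0 without Sham 2 in edgeR (6 at an unadjusted p under 0.05), and 0 to 1 lower, which was Cd3g without IANX 2. At 2 samples in a group the fit shares its spread over the remaining samples. Without Sham 2, 1029 of all genes were higher and 1571 lower, against 2734 and 2550, so fewer calls were made over all genes too. Cd3g changed its sign to 0.31 with IANX 2 alone. Of the other genes of the T cell lists 35 rose; limma called 22, 22 and, without the minimum, 17, and leaving out 1 sample gave 9 to 29. Their 9 lower calls were 6 to 11. Of the pan-leukocyte genes 10 rose, against 0 to 9 with 1 sample left out, 2 with the replicate block, and 5, 4 and 2 in the 3 limma fits.

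With the replicate number as a block, 4 markers and 21 other T cell list genes rose, and Cd4 (adjusted p = 0.105) and Cd8a (0.0836) no longer passed. Without the replicate block, same-numbered samples correlated in their deviations at 0.08, -0.01 and 0.11, so that the numbers were not taken to pair the samples. Library-size scaling moved the median of all genes from 0.08 to 0.53 and the share of calls that were higher from 51.7% to 80.1%, with Cd3g at -0.11. The low counts of Cd3e, Cd3d, Cd2 and Cd28, at most 41 in a sample, limit what these libraries can show.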

Other observations

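Among genes of the T cell lists with too few counts for the test, some were found mainly or only in IANX. They were picked after their counts were seen and have no test. Cxcr6, a homing receptor of tissue-resident T cells, had 6, 15 and 10 counts in IANX 1, 2 and 3 and 1, 0 and 2 in Sham 1, 2 and 3. Havcr2, the checkpoint receptor TIM-3 that macrophages also express, had 7, 31 and 25 counts in IANX and 3, 4 and 4 in Sham. Eomes, a factor of cytotoxic T and NK cells, had 1, 13 and 2 counts in IANX and 0 in each Sham sample, so that most came from IANX 2. Cd5, a receptor of T cells, had 4, 7 and 0 counts in IANX and 0 in each Sham sample. Gzmk, a granzyme gene, had 6, 23 and 19 counts in IANX and 5, 5 and 1 in Sham, and Ikzf3, a lymphoid factor, 7, 21 and 13 against 6, 5 and 1. In each of these except Cd5 the IANX samples lay above the Sham samples in raw counts, which are not scaled for library size. TMM scaling made the effective libraries larger in IANX than in Sham. After this scaling, Gzmk and Ikzf3 overlapped, with IANX 1 below Sham 1 and Sham 2. Among all tested genes, 27.0% lay wholly higher in IANX in CPM.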
